A study of Mus musculus with 2 samples.

Results

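The genes described here encode enzymes that make prostaglandins, thromboxane, leukotrienes and lipoxygenase products. The set was given as a list of 10 genes, 2 cyclooxygenases, 4 prostanoid synthases, 2 genes of the leukotriene branch and 2 further lipoxygenases. Its rule used no measured value, but the list was drawn up with earlier results of these data known. A probe set carrying that single gene symbol was found for 9 of the 10. Ptgs1, the constitutive cyclooxygenase, had none, so its expression was not analysed here. The 9 genes were read against 19938 genes measured in the same way.

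White fat of mice was profiled on Affymetrix Mouse Gene 1.0 ST arrays, which carry probes along the length of each transcript. One group, Oma1_WT, was labelled as control with wild-type Oma1, and the other, Oma1_KO, as Oma1-deficient. Mice of both were 24 weeks old and had eaten a high-fat diet for 20 weeks, so no lean mouse entered the comparison. Oma1 encodes a protease of the inner mitochondrial membrane. Each group had 1 array. The design of the deletion, the fat depot, the strain and any pooling of animals are not given in the labels. With 1 array per group there was no replicate check and no test of genotype, and precision is limited by the number of arrays.

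Eicosanoids are short-lived lipid signals made from arachidonic acid after phospholipases free it from membranes. Cyclooxygenases turn it into an unstable endoperoxide, which separate synthases convert to prostaglandin D, prostaglandin E, prostacyclin or thromboxane. Lipoxygenases instead add oxygen at a set carbon, and the leukotriene branch begins with Alox5 and its membrane partner Alox5ap. In fat, prostaglandin E restrains lipolysis through the receptor Ptger3, and macrophages and mast cells contribute much of the leukotriene machinery.

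Values are the intensities deposited by the authors, and a difference is the log2(intensity + 1) of the Oma1-deficient array less that of the wild-type array. The pseudocount of 1 understates differences of dim genes. A gene was placed above the filter if its mean over both arrays reached 83, the median intensity of all 35512 probe sets. Of the 19938 genes, 11394 did, and 7 of the 9 measured synthesis genes were among them. Ptgs2 and Alox12 were below it. Each of the 9 genes had 1 probe set, so no second probe set could check its value. Among 545 other genes above the filter with exactly 2 probe sets, the within-gene SD of the log2 difference over the 2 probe sets was 0.17. The Oma1 probe set itself read 187 in the wild-type and 155 on the Oma1-deficient array, and the probed part of the transcript is not stated to be the deleted part, so it does not check the label.

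Alox15 stood apart from the other synthesis genes. It read 125 on the wild-type array and 269 on the Oma1-deficient array, 2.15 times as much and a difference of 1.10 on the log2 scale. None of the other 8 differed by 1.5-fold, although 6 of them also read higher on the Oma1-deficient array and only Ptgds and Alox12 read lower, counting the dim Ptgs2 and Alox12. Over the 9 measured genes the median difference was 0.17, and over the 8 without Alox15 it was also 0.17. The median of all 11394 genes above the filter was -0.06.

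**Figure D1:**
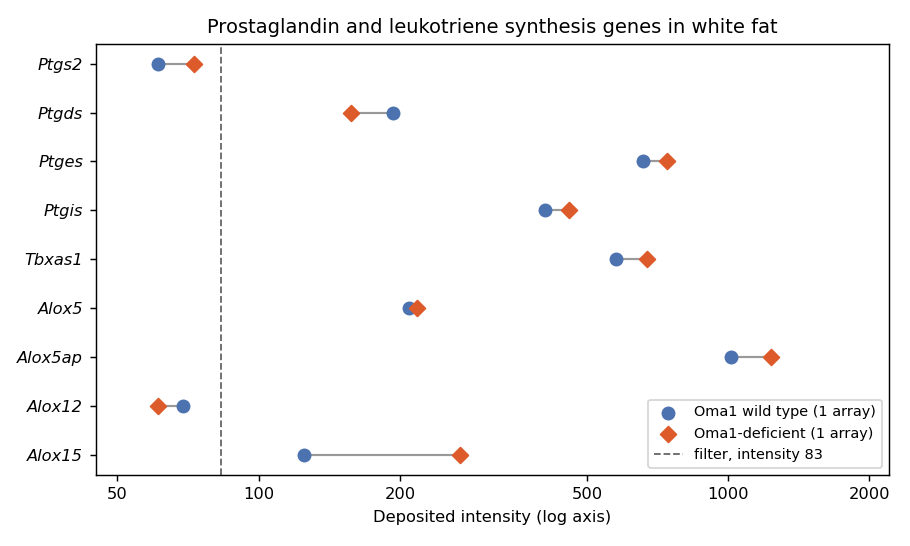
Deposited intensity (log axis) of the 9 measured synthesis genes in the 1 wild-type array (circles) and the 1 Oma1-deficient array (diamonds), with a dashed line at the filter intensity of 83. Alox15 has the widest gap, from 125 to 269, while Ptgs2 and Alox12 lie left of the line in both arrays; positions of different genes cannot be compared, since probe sets differ in response.

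Of the 7 synthesis genes above the filter, 1 was at least 1.5-fold higher on the Oma1-deficient array, against 1.23% of all genes above the filter, and 0 were at least 1.5-fold lower, against 1.74%. At 2-fold the same gene, Alox15, was counted, against 0.272% of all genes. Being higher by any amount was seen in 6 of these 7 genes and in 36.6% of all genes above the filter. These are descriptions of 2 arrays and not tests of the list against other genes.

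Cyclooxygenase catalyses the committed step towards all prostanoids. Ptgs2, the inducible cyclooxygenase of inflammation and growth factor signalling, read 61 on the wild-type array and 73 on the Oma1-deficient array, a difference of 0.26. Both readings lay below the filter intensity. At that brightness signal cannot be told from background without detection calls, so neither the presence of the transcript nor its direction is shown.

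Ptgds, Ptges and Tbxas1 convert the shared endoperoxide to prostaglandin D, prostaglandin E and thromboxane. Ptgds read lower on the Oma1-deficient array while Ptges and Tbxas1 read higher, and for this reason their promoters are shown together. Whether any motif bears on these readings was not tested. Each window runs from 250 bases before to 50 bases after the gene's start in RefSeq, assembly GRCm38.p6, and is written 5′ to 3′ on the strand of the gene. Ptgds lies at chr2:25469700-25469999 on the minus strand, Ptges at chr2:30903248-30903547 on the minus strand, and Tbxas1 at chr6:38918736-38919035 on the plus strand. Capitals mark matches to 6 motifs on either strand.
Ptgds: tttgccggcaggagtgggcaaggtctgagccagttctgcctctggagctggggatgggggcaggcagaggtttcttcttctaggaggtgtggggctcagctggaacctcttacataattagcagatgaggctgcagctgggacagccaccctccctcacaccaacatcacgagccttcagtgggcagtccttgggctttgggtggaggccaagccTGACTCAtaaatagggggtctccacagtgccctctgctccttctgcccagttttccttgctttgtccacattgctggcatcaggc
Ptges: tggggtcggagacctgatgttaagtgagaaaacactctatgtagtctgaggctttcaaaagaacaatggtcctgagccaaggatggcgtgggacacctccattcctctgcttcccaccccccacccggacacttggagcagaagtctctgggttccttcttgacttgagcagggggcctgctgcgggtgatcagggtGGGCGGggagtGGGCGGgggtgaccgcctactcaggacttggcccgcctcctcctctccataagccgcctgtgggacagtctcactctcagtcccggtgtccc
Tbxas1: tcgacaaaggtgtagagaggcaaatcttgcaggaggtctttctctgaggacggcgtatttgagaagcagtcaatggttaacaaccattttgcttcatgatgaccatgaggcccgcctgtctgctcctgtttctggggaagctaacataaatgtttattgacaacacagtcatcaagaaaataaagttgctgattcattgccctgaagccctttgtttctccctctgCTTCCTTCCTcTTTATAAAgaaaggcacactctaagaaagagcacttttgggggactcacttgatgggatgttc

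The motifs searched were TATAAA, the TATA box; GGGCGG, the GC box bound by Sp1; TGACTCA, bound by AP-1; CACGTG, an E-box; TTGCGCAA, a C/EBP palindrome; and AGGAAG, the core bound by ETS factors such as PU.1. The 3 windows differed in what they held. In Ptges the search found 2 GC boxes, starting 53 and 42 bases before the start site. In Tbxas1 it found TATAAA on both strands in overlapping positions, starting 13 and 11 bases before the start site, next to a pair of overlapping ETS cores on the opposite strand at 24 and 20 bases before it. Ptgds held a single AP-1 match, 35 bases before the start site.

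A promoter window was found for 7 of the 10 listed genes, and none for Ptgis, Alox5ap and Alox15. Of all 32851 windows of this length, 35.7% held a GC box, 35.4% an ETS core, 13.6% TATAAA, 7.15% the E-box, 5.20% the AP-1 letters and 0.183% the C/EBP palindrome. Among the 7, the GC box was in Ptgs2, Ptges, Alox5 and Alox12 and the ETS core in Ptgs1, Ptgs2 and Tbxas1. The E-box and the C/EBP palindrome were in Ptgs2 alone. A match is a description of letters.

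Ptgds, the lipocalin-type prostaglandin D synthase, read 193 on the wild-type array and 157 on the Oma1-deficient array, a difference of -0.30. It was the only synthesis gene above the filter that was lower. Of the 11394 genes above the filter, 1333 had a still lower difference.

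Ptges, the inducible microsomal prostaglandin E synthase that works with Ptgs2, read 659 and 741, a difference of 0.17. Ptgis, the cytochrome P450 that makes prostacyclin, a vasodilator of vessel walls, read 407 and 459, also a difference of 0.17. Both differences equalled, to 2 decimals, the within-gene SD between probe sets given above.

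Tbxas1, thromboxane synthase, a product of platelets and macrophages, read 576 and 670, a difference of 0.22. That is 1.16 times as much on the Oma1-deficient array. Of the genes above the filter, 1116 had a higher difference than Tbxas1, 1493 a higher one than Ptgis and 1540 a higher one than Ptges. The 4 prostanoid synthases in the list thus lay between -0.30 and 0.22, all within 1.5-fold.

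In the leukotriene branch Alox5ap was further from 0 than the enzyme it serves. Alox5, arachidonate 5-lipoxygenase, which makes leukotriene A and also acts in lipoxin synthesis, read 209 on the wild-type array and 217 on the Oma1-deficient array, a difference of 0.05 that was smaller than the within-gene SD between probe sets. After loess it was 0.11 and after quantile normalisation 0.12, still under that SD. Alox5ap, the membrane protein that presents arachidonic acid to Alox5, read 1015 and 1235, a difference of 0.28. Among genes above the filter, 733 had a higher difference than Alox5ap and 3103 a higher one than Alox5. Alox5ap had the second highest difference of the synthesis genes above the filter, after Alox15.

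Of the 2 remaining lipoxygenases only Alox15 was above the filter. Alox12, the platelet-type lipoxygenase, read 69 and 61, a difference of -0.18 between readings that were both below the filter, so its direction is not shown either. Alox15, the leukocyte-type lipoxygenase of the mouse, oxidises arachidonic and linoleic acid, also within membranes, and is known from resident peritoneal macrophages and eosinophils. Its readings of 125 and 269 were both above the filter intensity, so it did not enter through the Oma1-deficient array alone. Only 27 of the 11394 genes above the filter had a higher difference.

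The level of Alox15 was in the second lowest of 4 equal bins of the genes above the filter, with mean intensities from 171.5 to 332.5. In that bin of 2848 genes the SD of the difference was 0.26 and 0.386% were at least 2-fold higher, compared with 0.105% in the brightest bin. Under quantile normalisation, loess and a pseudocount of 16 the difference of Alox15 stayed between 1.02 and 1.15. Alox15 had 1 probe set, so choosing the brightest could not change it. It has no replicate, so how much 2 mice of one genotype differ in Alox15 is not known.

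**Figure D2:**
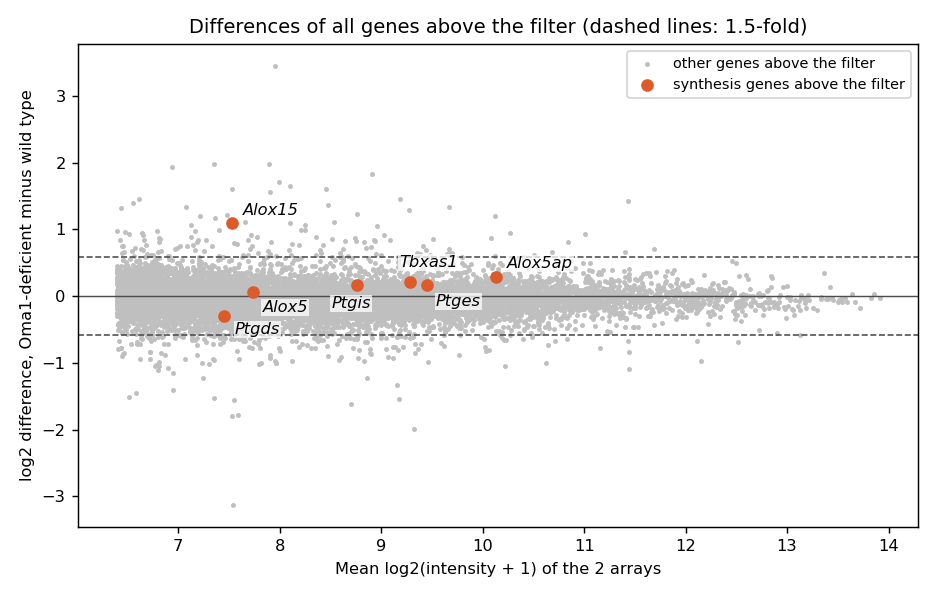
The log2 difference, Oma1-deficient minus wild type, of the 11394 genes above the filter (grey) against their mean log2(intensity + 1) over the 2 arrays, with the 7 synthesis genes above the filter in orange and dashed lines at 1.5-fold. Alox15, at 1.10, lies outside the dashed lines, and the other 6 lie between -0.30 and 0.28.

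Genes beside Alox15 on its chromosome had smaller differences, in both directions. In the order of the RefSeq table, the measured genes on either side were Alox12e, a related lipoxygenase, at 41 and 37 (-0.14), and Pelp1, a nuclear receptor coregulator, at 477 and 415 (-0.20). Alox12, the second gene on one side, is given above. On the other side came Arrb2, an arrestin, at 0.30, Med11, a Mediator subunit, at -0.42, and Cxcl16, a chemokine of macrophages, at 0.42. Alox12e and Alox12 were dim in both arrays. Alox8, Alox12b and Aloxe3, lipoxygenases of epidermis and other epithelia, were also below the filter in both arrays, with differences from 0.03 to 0.19.

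The rest of the pathway was taken from a list of 62 genes, of which 57 were measured and 42 were above the filter. Of these 42, 14 were higher and 28 lower on the Oma1-deficient array, 0 passed 1.5-fold on the higher side and 2 passed it on the lower side. The background shares are the 1.23% and 1.74% given above, and 36.6% of all genes above the filter were higher by any amount. The median of the 42 was -0.08 beside -0.06 for all genes above the filter, and after quantile normalisation the values were -0.04 and -0.01.

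The 2 genes at least 1.5-fold lower were both secreted phospholipases, which free fatty acids from phospholipids outside cells. Pla2g2d, a phospholipase of dendritic cells and macrophages in lymphoid tissue, read 276 on the wild-type array and 160 on the Oma1-deficient array, a difference of -0.78. Pla2g5 read 207 and 126, a difference of -0.71. They are neighbours on one chromosome among other genes of the family. Of these neighbours, Pla2g2e, a secreted phospholipase of adipocytes, read 573 and 468 (-0.29), while Pla2g2a, Pla2g2c and Pla2g2f were below the filter in both arrays, at 36 and 34, 54 and 65, and 25 and 30. Pla2g12a, a secreted phospholipase of another group, read 222 and 176 (-0.33).

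Of the intracellular phospholipases, Pla2g4a, the calcium-dependent cytosolic phospholipase that supplies most arachidonic acid for eicosanoids, read 202 and 238 (0.24). Pla2g6, the calcium-independent form, read 552 and 468 (-0.24). Plaat3, the adipose phospholipase that limits lipolysis by way of prostaglandin E, read 1883 and 1774 (-0.09). Of the 9 genes of arachidonate release above the filter 2 were higher and 7 lower, with a median of -0.24.

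Hpgds, the haematopoietic prostaglandin D synthase of mast cells and macrophages, was higher where Ptgds was lower. It read 747 on the wild-type array and 1056 on the Oma1-deficient array, 1.41 times as much and a difference of 0.50, beside the -0.30 of Ptgds. It had the highest difference of the 42 pathway genes above the filter. Prxl2b, a prostaglandin F synthase, read 573 and 439 (-0.38), and Ptgr2, a reductase of prostaglandin metabolites, 807 and 653 (-0.31). For prostaglandin E, Ptges2 read 154 and 183 (0.25). The 3 probe sets of Ptges3, a co-chaperone also called cytosolic prostaglandin E synthase, disagreed, with differences of 0.32, -0.19 and -0.20 around a mean of -0.02.

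Enzymes downstream of Alox5 lay on both sides of 0. Ltc4s, which joins leukotriene A to glutathione, read 1624 and 1187 (-0.45), the opposite direction to the 0.28 of Alox5ap, a protein of the same membrane family. Mgst3, another member of that family, read 938 and 710 (-0.40). Lta4h, which makes leukotriene B, read 529 and 516 (-0.04). Dpep1, a dipeptidase that converts leukotriene D to leukotriene E, read 1572 and 2097 (0.42). Of the 7 genes of this group above the filter 3 were higher and 4 lower.

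Removal of prostaglandins starts with Hpgd, the dehydrogenase that inactivates prostaglandin E, which read 2395 and 1931 (-0.31). Slco2a1, the uptake carrier that delivers prostaglandins to it, read 426 and 478 (0.17), and Abcc1, an exporter of leukotriene C, 708 and 613 (-0.21). Ptgr1, which reduces prostaglandin and leukotriene intermediates, read 205 and 234 (0.19). Of these 6 genes 2 were higher and 4 lower, and 0 reached 1.5-fold.

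Among receptors, the lipolysis-restraining prostaglandin E receptor Ptger3 read 1052 and 807 (-0.38), and Ptger4, another receptor for prostaglandin E, 370 and 365 (-0.02). Tbxa2r, the thromboxane receptor, read 100 and 136 (0.44), and Ptgfr, the receptor for prostaglandin F, 118 and 92 (-0.36). Cysltr1, a receptor for cysteinyl leukotrienes on macrophages and mast cells, read 369 and 504 (0.45), and Cmklr1, a receptor for chemerin that is also reported for a resolvin, 1961 and 1541 (-0.35). Ptger2, Ptgdr, Ptgdr2, Ltb4r1 and Cysltr2 were below the filter. Among genes that build and store arachidonic acid in membranes, Acsl4, which activates it, was lower at 581 and 475 (-0.29), and Lpcat3, which inserts it into phospholipids, read 4070 and 4201 (0.05). The others of that group were Fads1, Fads2, Elovl5 and Anxa1, between -0.11 and 0.07.

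**Figure D3:**
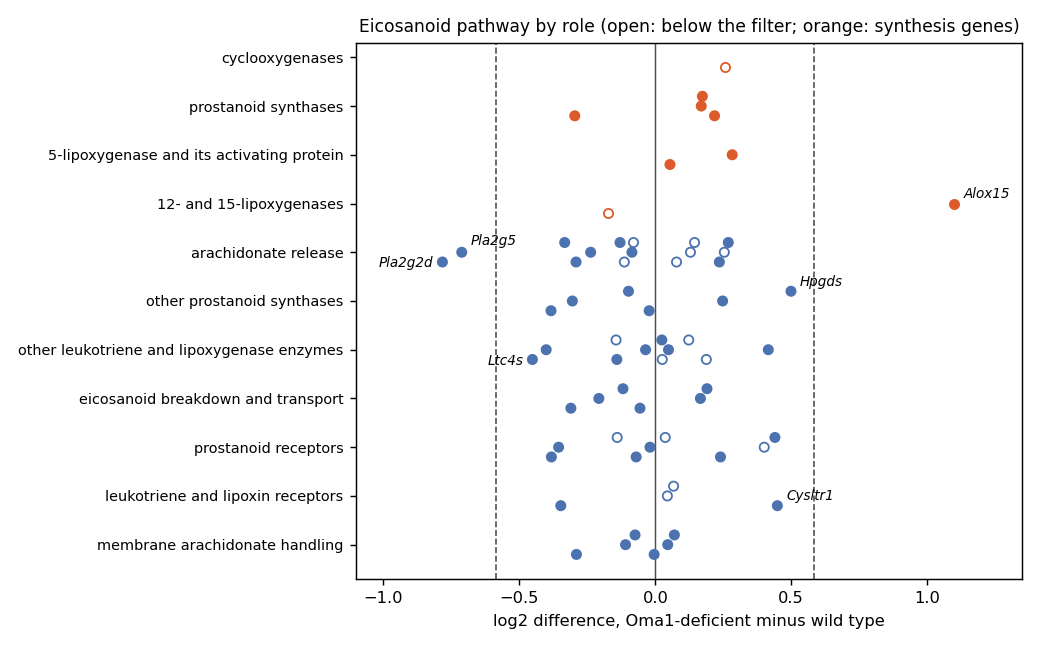
The log2 difference, Oma1-deficient minus wild type, of each measured gene of the pathway by role, with synthesis genes in orange, other pathway genes in blue, open symbols for genes below the filter and dashed lines at 1.5-fold; vertical scatter within a role has no meaning. Alox15 alone lies right of the higher line, and Pla2g2d and Pla2g5 alone lie left of the lower one.

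Many cell type markers differed between the 2 arrays, and in tissue RNA fewer cells of a type and less RNA per cell cannot be told apart. No measured marker had a deposited intensity of 0, since the lowest of any probe set was 8. Some, such as Il5ra and Retnlg, had a difference of 0. On the Oma1-deficient array 10 of 12 macrophage markers read higher, with a median of 0.26 and summed intensities of 33277 and 39061. Csf1r, the receptor for the main macrophage growth factor, read 2482 and 3122 (0.33). The differences of Tbxas1 and Alox5ap, 0.22 and 0.28, lay on either side of this median, and that of Alox5, 0.05, was smaller. Whether macrophage content accounts for them was not tested.

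For Alox15 the markers of cells known to express it were set beside it. All 5 measured eosinophil markers were below the filter in both arrays, with summed intensities of 183 and 206 and a median difference of 0.16, or 0.10 after loess or with a pseudocount of 16. Siglecf, a surface lectin of eosinophils and of some macrophages, read 63 and 80, and Epx, the eosinophil peroxidase, 25 and 28. Of 6 measured markers of large peritoneal macrophages 4 were higher, with a median of 0.11 and summed intensities of 2198 and 2569. Gata6, the transcription factor of these macrophages that mesothelium also expresses, read 444 and 487 (0.13), Timd4, a receptor for dying cells, 120 and 116 (-0.05), and Prg4, lubricin, 368 and 653 (0.83).

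Interleukin-4 induces Alox15 in human monocytes, and genes that respond to this cytokine in mouse macrophages were measured too. Of 8, 5 were higher, the median was 0.18 and the summed intensities were 2682 and 4182. Above the filter were 5 of the 8, with 4 higher, 1 lower and a median of 0.23. Retnla, a resistin-like protein, read 1491 and 2848 (0.93), and Mgl2, a lectin, 452 and 543 (0.26). Arg1, arginase, read 79 and 93 (0.23), and passed the filter intensity of 83 only through the Oma1-deficient array. Chil3 read 29 and 25, below the filter. Retnla made up most of the change in the sum, and adipocytes of fat are also known to express it. The part of these cells in the difference of Alox15 was not tested.

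Markers of mast cells and platelets were set beside single genes of the pathway, and no likeness of pattern can be computed from 2 arrays. Of 10 mast cell markers 7 were higher (median 0.17, or 0.11 after loess, summed intensities 1347 and 2017). Of the 6 above the filter 4 were higher and 2 lower. Cpa3, a protease, was highest at 282 and 663 (1.23), while Kit read 212 and 187 (-0.18) and Gata2 176 and 156 (-0.17). Hpgds and Cysltr1, which mast cells express, were also higher, whereas Ltc4s was lower. All 7 measured platelet and megakaryocyte markers were higher (median 0.32, summed intensities 2105 and 2593), with Ppbp at 343 and 602 (0.81), beside Tbxas1 and Tbxa2r. Alox12, the platelet-type enzyme, was below the filter in both arrays. What platelets or mast cells contributed was not tested.

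Most markers of endothelium and mesothelium read lower without Oma1. For endothelium this held for 11 of 12 (median -0.36, summed intensities 14104 and 11006), while Ptgis, a synthase of vessel walls, was higher by 0.17. Of 10 markers of smooth muscle and pericytes, cells that also express Ptgis, 5 were higher and 5 lower (median 0.00, summed intensities 8155 and 8413). Of 11 mesothelial markers 10 were lower (median -0.51, summed intensities 3133 and 2205). The 4 measured markers of nerve and meninges, tissues rich in Ptgds, had a median of -0.03 and summed intensities of 11409 and 11724. Those of epididymis and testis, which also make Ptgds, were above the filter for 1 of 9 measured genes, with a median of 0.12 (0.06 after quantile normalisation or loess) and summed intensities of 394 and 431. Of these 9, 5 were higher, 2 lower and 2 equal. Since the list pools genes of both organs and most were dim, its median and sums do not show the level of either organ. Prm1, the 1 above the filter, read 76 and 105 (0.46). Its wild-type reading lay below the filter intensity of 83, so it passed only through the Oma1-deficient array and its direction is not shown. Adam7, an epididymal gene, read 62 and 21 (-1.52), both below the filter, so its direction is not shown either. The part of these tissues in the difference of Ptgds was not tested.

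The labelled tissue was matched by its markers in both arrays. The 9 measured adipocyte markers read from 3721 upwards, with a median difference of -0.12 and summed intensities of 61946 and 55122. Of 10 liver markers 9 were higher, with a median of 0.87 and summed intensities of 3825 and 8787, a larger difference than that of any synthesis gene but Alox15. Neutrophil markers, of which 2 of 10 were above the filter, had a median of 0.06 (summed intensities 648 and 679). Fibroblast and progenitor markers had a median of 0.02 (summed intensities 30877 and 32717). The 6 measured B cell markers, of which 3 were above the filter, all read lower, with a median of -0.38 (summed intensities 884 and 611). How far these tissues or cells bear on the synthesis genes was not tested.

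**Figure D4:**
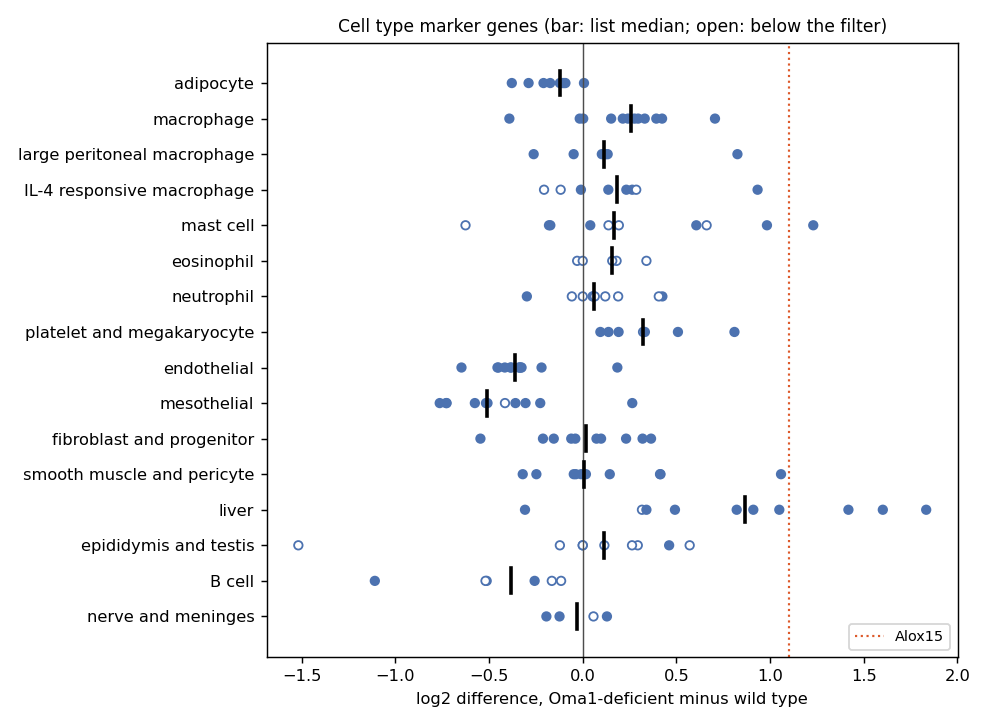
The log2 difference, Oma1-deficient minus wild type, of each measured marker gene by cell type, with a black bar at the median of each list, open circles for genes below the filter and a dotted line at the 1.10 of Alox15. Macrophage and platelet medians lie right of 0, endothelial and mesothelial medians left of it, and every eosinophil marker is below the filter.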

How the data were processed

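Total RNA of white adipose tissue was biotin-labelled and hybridised to Mouse Gene 1.0 ST arrays, per the labels' protocols. The authors deposited 1 linear intensity per probe set and array, in whole numbers. For the software, background correction and scaling no statement was found in the labels. Both arrays had a median of 83, and intensities ran from 8 to 21216 and from 8 to 21365.

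Gene names came from GEO's annotation of the platform: 21789 had 1 gene symbol, 1621 several and 12102 none, and the last 2 classes were left out. Gene identifiers of all 9 measured synthesis genes matched the RefSeq table of GRCm38.p6. Intensities were put on the log2(intensity + 1) scale and averaged over probe sets of a gene, with no further scaling. No test was run, since each group had 1 array. Differences were described by sizes of 1.5-fold and 2-fold.

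All listed synthesis genes are named. Other pathway genes are named if past 1.5-fold, or as up to 4 per role with the largest difference, and up to 3 per marker list. Genes beyond these were added after their values were seen, for their role, for position beside a named gene or to name those below the filter. The members and lists were chosen with earlier results of these data known. Alternatives were quantile normalisation, a loess correction, a pseudocount of 16, the brightest probe set and other intensity filters. The calculation was tested on simulated data with known shifts, which checks the arithmetic and not the spread between mice. Python 3.11.15, numpy 2.4.6, pandas 2.3.3, statsmodels 0.14.6 and matplotlib 3.10.9 were used.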

Additional observations from a re-analysis of the deposited data

How the results depend on the processing

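No paired analysis was possible because each group had 1 array, and for the same reason no array could be left out. All alternatives were planned. Of 35 genes whose differences were recomputed, 35 kept their sign and stayed within 0.17 of the reported value under quantile normalisation, loess and a pseudocount of 16. Choosing the brightest probe set could not change them, since each of the 35 had 1 probe set. The number of synthesis genes higher in the Oma1-deficient array was 7 of 9 under each of these settings, and their median difference ran from 0.17 to 0.23. The median of the other pathway genes, -0.08 as deposited, was -0.04 after quantile normalisation and after loess. With the filter at the upper quartile of all probe sets, an intensity of 326, Alox15, Pla2g2d and Pla2g5 were left out, so the count of synthesis genes at least 1.5-fold higher became 0 instead of 1, and that of other pathway genes at least 1.5-fold lower became 0 instead of 2. Over all genes above the filter, those at least 1.5-fold higher and lower numbered 140 and 198 as deposited, 169 and 147 after quantile normalisation and 165 and 154 after loess, and the share of genes higher by any amount was 36.6%, 46.9% and 47.5%. Signal over background could not be judged, because no detection calls were used.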
